A study of Mus musculus with 9 samples.

Results

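The genes described here are 9 components of the tight junction of intestinal epithelial cells (IECs): the claudins Cldn2, Cldn3, Cldn4, Cldn7, Cldn15 and Cldn23, the membrane protein occludin (Ocln), the scaffold ZO-1 (Tjp1) and the junctional adhesion molecule JAM-A (F11r). They were chosen by name as tight junction genes known in the small intestine, when earlier results of these data were known. They are 9 of the 29288 genes in the count table. All 9 passed the filter on low counts, so all 9 are among the 18933 genes tested. The study asked how activation of natural killer T (NKT) cells in vivo affects the epithelium. Bulk RNA-seq was performed on IECs of the proximal small intestine from WT female C57BL/6J mice in 3 groups of 3 libraries. Mice received an intraperitoneal injection of PBS and were sampled after 18 h (control), or 2 µg of α-galactosylceramide (αGal), a lipid that activates NKT cells. Of the αGal groups, 18h-αGal was sampled after 18 h and 72h-αGal after 72 h. Live cells were sorted from dissociated crypts as EpCAM+ CD45- CD31- Ter119-. No allele was altered in any group, the labels give no age, the study used young adult mice, and it states that its mice were not littermates. No PBS mice were sampled at 72 h, so time after injection and treatment cannot be told apart in a comparison of 72h-αGal with control. For the same reason, a difference between 18h-αGal and 72h-αGal, which are different mice, may hold an effect of time without αGal. Both αGal groups are compared with the same 3 control libraries. Whether the replicates of a group were caged or sorted together is not given in the labels, so the p-values measure the spread between these libraries.

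Tight junctions seal the space between neighbouring epithelial cells at their apical end. Claudins span the membrane and meet across that space: some, such as claudin-2 and claudin-15, form channels for small cations and water, and others, such as claudin-3 and claudin-4, tighten the seal. Occludin belongs to the MARVEL family and stabilises the strands, ZO-1 ties them to the actin cytoskeleton, and JAM-A helps to position the junction and recruit polarity proteins. In the gut, claudin-15 and claudin-2 supply the sodium that nutrient uptake needs, and interferon-γ, a cytokine of activated NKT cells, is known from cultured epithelial layers to loosen tight junctions.

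The sequences before the transcription start are shown for 3 members: Cldn15, because it is the member whose level passed the test, Cldn2, the other channel-forming claudin, which did not, and Cldn7, because its windows were the ones with a match to either interferon-type motif. Each is the 250 bases that end just before an annotated start, read 5′ to 3′ from the RefSeq table for GRCm38.p6, and all 4 windows lie on the plus strand. Capitals mark matches on either strand to 6 motifs: the interferon-γ activated site TTCNNNGAA (GAS), the interferon-stimulated element GAAANNGAA (ISRE), the CDX motif TTTATG, the SP/KLF motif GGGCGG, the HNF4 motif CAAAGTCCA and the E-box CACCTG.
Cldn15 (chr5:136967619-136967868): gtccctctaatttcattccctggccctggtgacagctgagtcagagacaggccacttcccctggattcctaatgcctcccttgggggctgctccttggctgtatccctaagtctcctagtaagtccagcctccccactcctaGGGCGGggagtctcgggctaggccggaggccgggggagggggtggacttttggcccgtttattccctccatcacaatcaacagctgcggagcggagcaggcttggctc
Cldn2 (chrX:139800558-139800807): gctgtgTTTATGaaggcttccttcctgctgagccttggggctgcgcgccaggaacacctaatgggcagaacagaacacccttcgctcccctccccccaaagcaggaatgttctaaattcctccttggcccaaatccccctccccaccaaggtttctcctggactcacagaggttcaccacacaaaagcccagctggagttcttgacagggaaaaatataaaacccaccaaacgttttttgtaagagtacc
Cldn7, first start (chr11:69964529-69964778): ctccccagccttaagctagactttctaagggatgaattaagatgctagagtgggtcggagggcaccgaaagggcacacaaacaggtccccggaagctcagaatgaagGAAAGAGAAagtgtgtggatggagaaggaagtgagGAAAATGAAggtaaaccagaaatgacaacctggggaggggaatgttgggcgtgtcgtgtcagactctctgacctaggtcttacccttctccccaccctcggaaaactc
Cldn7, second start (chr11:69965171-69965420): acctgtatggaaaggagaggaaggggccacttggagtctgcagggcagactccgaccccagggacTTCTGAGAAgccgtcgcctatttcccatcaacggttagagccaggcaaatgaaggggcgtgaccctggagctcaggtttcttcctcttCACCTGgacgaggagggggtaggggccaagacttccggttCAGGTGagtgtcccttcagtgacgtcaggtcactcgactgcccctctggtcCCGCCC
The Cldn15 window held 1 SP/KLF match that began 108 bases before the start, and the Cldn2 window held 1 CDX match that began 244 bases before it. The first Cldn7 window held 2 ISRE matches, at 143 and 108 bases before the start, and the second held 1 GAS match at 185 bases, 2 E-boxes at 97 and 57 bases and 1 SP/KLF match at 6 bases. None of these matches overlapped another. Windows were listed for 8 of the 9 members, all but Cldn23, and of these 7 held an SP/KLF match, 4 an E-box, 1 a GAS match, 1 an ISRE match, 1 a CDX match and none an HNF4 match. Among all 32851 windows of this length, 32.7% held an SP/KLF match, 17.2% an E-box, 7.02% a GAS match, 7.13% an ISRE match, 10.8% a CDX match and 0.384% an HNF4 match. Matches of these short motifs are a description of the letters and were not tested for binding.

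The libraries held between 8887861 and 32722293 counts assigned to genes. Control replicate 3, the library with the fewest counts, stood apart from the other controls: of the 3 control libraries it had the highest normalised count for 7 of the 9 members and the lowest for the other 2, Cldn2 and Cldn4. It also had the highest summed level of 12 enterocyte marker genes of all 9 libraries (455425 normalised counts, against 255655 and 173221 in the other controls). Its summed level of 6 interferon response genes was 7158 normalised counts, against 3683 and 3803 in the other controls. That sum was 16876 to 19095 in 18h-αGal and 4031 to 5726 in 72h-αGal. Member results that rest on control replicate 3 are given with and without it, and so is the call for Magi1. Epcam, the surface marker used to select the cells, ranged from 16279 to 22719 normalised counts over the 9 libraries, while Ptprc (CD45) ranged from 4.42 to 57.9. Pecam1 (CD31) lay between 31.1 and 47.5 in control, between 12.6 and 20.7 in 18h-αGal and between 17.4 and 22.8 in 72h-αGal, below each control library in both αGal groups, and was not called (adjusted p = 0.249 and 0.892, edgeR). As a check of the treatment, Irf1, a transcription factor of the interferon response, rose at 18 h from 2094 to 3522 normalised counts (adjusted p = 0.0135, edgeR) and was at 2063 at 72 h. In these bulk samples, fewer cells of a type and less RNA per cell cannot be told apart.

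Per kilobase of exon, Cldn15 was the most abundant member in each of the 9 libraries. In control libraries its mean was 4874 ± 995 normalised counts per kb (SD, n = 3), followed by Cldn3 with 2814 ± 262 and Cldn7 with 2395 ± 137. Cldn15 did not overlap its neighbour in this order in any group. Cldn3 and Cldn7 shared places 2 and 3 in every library, and their libraries overlapped at 18 h and at 72 h. Their order depended on the length used: per kb of the longest coding transcript, Cldn7 lay above Cldn3 in each of the 9 libraries. By that length Cldn15 still lay above Cldn7 within each library. The lead was narrow in 72h-αGal replicate 1, at 29.1% against 28.9% of the summed claudin level. Cldn23 (1071 ± 283), Cldn2 (1051 ± 196) and F11r (813 ± 243) came next in control and took places 4 to 6 in every library. Within these 3 genes each neighbour in the control order overlapped the next. Tjp1 (478 ± 55.4), Cldn4 (399 ± 65.1) and Ocln (337 ± 34.5) were the lowest per kb, and again each overlapped the next in control.

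The 6 member claudins made up nearly all of the claudin transcripts. In the summed level per kb of the 21 claudins in the table, they took 98.5% ± 0.461 in control, 99.0% ± 0.0421 in 18h-αGal and 98.6% ± 0.296 in 72h-αGal (SD, n = 3). The summed level itself was 12797 ± 1376 normalised counts per kb in control, 13916 ± 1083 in 18h-αGal and 12002 ± 1465 in 72h-αGal, and the 3 ranges overlapped. The composition within a library does not depend on the scaling between libraries and was described without a test. The shares of a library add up to a fixed total, so a higher share of some claudins lowers those of others. Cldn15 took 36.1%, 35.6% and 41.9% of the claudin level in the control libraries, 42.7%, 43.0% and 45.1% in the 18h-αGal libraries, and 30.4%, 35.4% and 34.1% in the 72h-αGal libraries. All 18h-αGal shares lay above all others, the nearest being that of control replicate 3, and all 72h-αGal shares lay below all control shares. The share of Cldn3 was lower at 18 h in each library, between 18.4% and 19.2%, than in control, between 21.7% and 22.3%, or at 72 h, between 22.0% and 24.9%. The share of Cldn23 was likewise lower at 18 h, between 4.55% and 6.10%, than in control, between 7.46% and 9.71%, or at 72 h, between 7.41% and 8.92%. Cldn7 took between 17.7% and 19.5% in control and between 20.7% and 22.0% at 18 h, without overlap, and between 18.6% and 21.4% at 72 h. The shares of Cldn2 overlapped among all 3 groups, with control replicate 3 (5.75%) and 18h-αGal replicate 3 (4.89%) far below the other 7 libraries, which lay between 8.70% and 11.8%. Cldn4 was the smallest of the 6, between 1.80% and 4.28%, also with overlap among the groups. As counts, Cldn3 and Cldn23 overlapped between 18h-αGal and control, with log2 fold changes of -0.09 and -0.56, and neither was called. Of all genes tested, 23.8% did not overlap between these groups as counts, and no such rate was computed for shares.

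**Figure D1:**
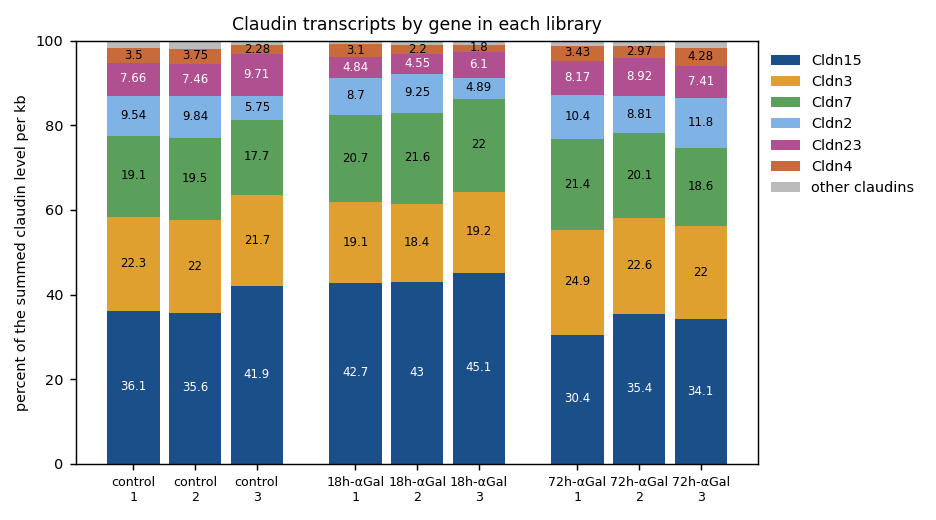
Share of each claudin in the summed claudin level of a library, in percent of normalised counts per kb of exon, for the 3 replicates of each group. The lowest segment is Cldn15, which takes 42.7% to 45.1% in the 18h-αGal libraries, 35.6% to 41.9% in control and 30.4% to 35.4% in 72h-αGal.

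The test across all genes called few members. At 18 h against control, 0 of the 9 members passed the edgeR quasi-likelihood test at an adjusted p under 0.05, while 5.96% of all genes tested did. DESeq2 also called 0 members there, and 3 had an unadjusted p under 0.05. At 72 h against control, 0 of 9 were called by edgeR and by DESeq2, with 0 at an unadjusted p under 0.05, beside 0.0264% of all genes. Between the αGal groups, 72 h against 18 h, 1 of 9 was called, Cldn15, and 3 had an unadjusted p under 0.05, beside 10.2% of all genes called. The median log2 fold change of the 9 members was 0.00, -0.04 and -0.04 in the 3 comparisons, and that of all genes tested was -0.03, 0.00 and 0.05. The libraries of 18h-αGal and control did not overlap for 1 member, Cldn7 (23.8% of all genes tested), those of 72h-αGal and control for 0 members (12.7% of all genes), and those of 72h-αGal and 18h-αGal for 2 members, Cldn15 and F11r (32.8% of all genes).

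**Figure D2:**
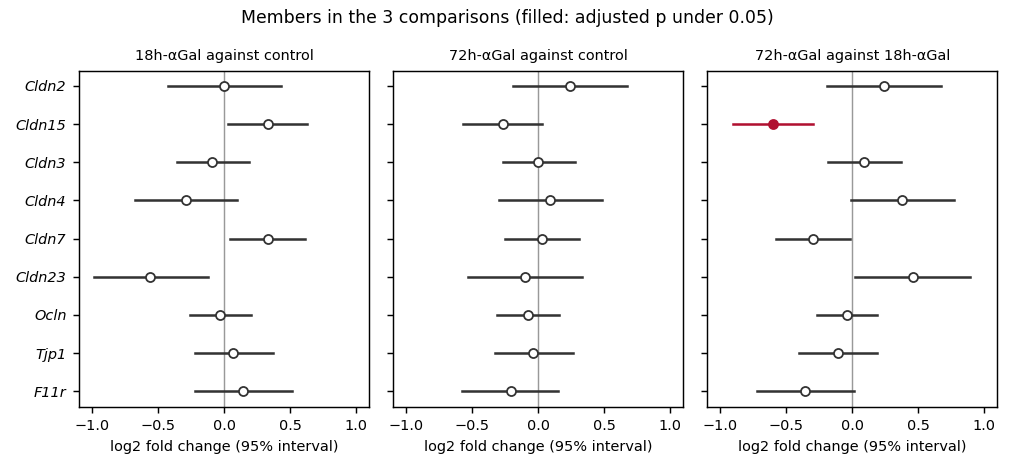
Log2 fold change of each of the 9 members in the 3 comparisons, with lines for the 95% confidence interval from the edgeR fit and a filled point where the adjusted p was under 0.05. The filled point is Cldn15 at 72 h against 18 h, at -0.60 with an interval from -0.90 to -0.30.

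Among the channel-forming claudins, Cldn15 was lower at 72 h than at 18 h, and Cldn2 was not distinguishable between the groups. Cldn15 (chr5:136967869-136975845) had 9368, 9352 and 13111 normalised counts in control, 11837, 13216 and 14610 in 18h-αGal, and 8501, 9889 and 7663 in 72h-αGal. The 18h-αGal libraries lay above all 72h-αGal libraries and above control replicates 1 and 2, but control replicate 3 fell within their range. From 18 h to 72 h Cldn15 fell by 0.60 on the log2 scale (SE 0.14, adjusted p = 0.0147, edgeR), to 0.660 of the 18 h level with a 95% interval from 0.536 to 0.814. The call held in 14 of 17 alternative fits and was lost without 18h-αGal replicate 2 (adjusted p = 0.0531, edgeR), 72h-αGal replicate 1 (0.0619) or 72h-αGal replicate 3 (0.0780). Against control, the log2 fold change was 0.33 ± 0.14 (SE) at 18 h (adjusted p = 0.197, edgeR) and -0.27 ± 0.14 at 72 h (adjusted p = 0.860). Without control replicate 3, Cldn15 rose at 18 h by 0.50 ± 0.12 on the log2 scale (adjusted p = 0.0224, edgeR), while over all 17 alternatives the adjusted p ranged from 0.0224 to 0.482. At 72 h the value without that library was -0.10 ± 0.12.

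Enterocyte marker genes varied with Cldn15 in part of the libraries. The summed level of the 12 markers (Alpi, Sis, Lct, Apoa1, Apoa4, Fabp1, Fabp2, Anpep, Mgam, Rbp2, Krt20 and Treh) ranged from 173221 to 455425 normalised counts in control, from 239260 to 373982 in 18h-αGal and from 119302 to 225223 in 72h-αGal. All 12 were in the table and none was at 0 throughout a group. In control replicate 3 and 18h-αGal replicate 3 both the markers and Cldn15 were highest of their group, and within 72h-αGal the libraries stood in the same order by either measure. In contrast, 18h-αGal replicate 2 had fewer marker counts than 18h-αGal replicate 1 or control replicate 1 (239260 against 277909 and 255655) and more Cldn15 than either (13216 against 11837 and 9368). Between 18 h and 72 h, 0 of the 12 markers were called by edgeR and 1 by DESeq2, 2 had an unadjusted p under 0.05, and 11 had a negative log2 fold change, with a median of -0.69. At 18 h against control, 0 were called by edgeR or DESeq2, 1 had an unadjusted p under 0.05, and the median was -0.16, whereas the Cldn15 value was 0.33. The part of enterocyte content in the fall of Cldn15 was not tested.

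**Figure D3:**
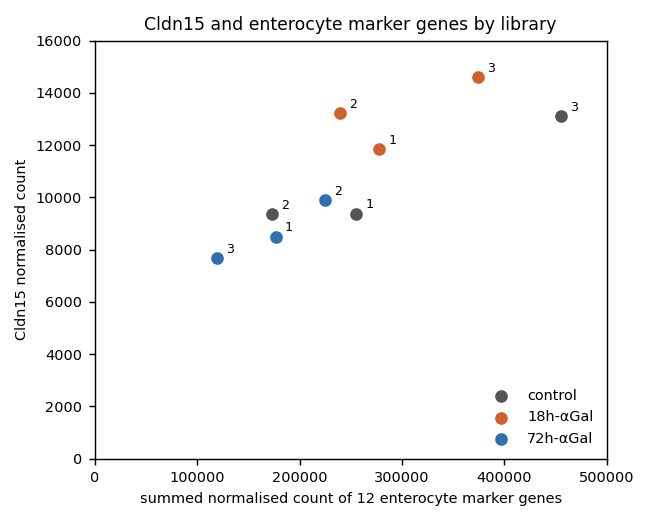
Cldn15 normalised count (vertical) against the summed normalised count of 12 enterocyte marker genes (horizontal), 1 point per library, coloured by group and numbered by replicate. The 3 18h-αGal libraries lie between 11837 and 14610 for Cldn15, and control replicate 3 has the highest marker sum, 455425.

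Cldn2 (chrX:139800808-139811386) had 3908, 4085 and 2841 normalised counts in control, 3810, 4488 and 2502 in 18h-αGal, and 4606, 3885 and 4194 in 72h-αGal. Control replicate 3 and 18h-αGal replicate 3 were lowest, the same libraries in which Cldn15 was highest, and the groups overlapped. The log2 fold change was 0.00 at 18 h, with a 95% interval from -0.43 to 0.43, and 0.24 at 72 h, from -0.19 to 0.67 (adjusted p = 0.997 and 0.912, edgeR). The ratio of Cldn15 to Cldn2 per kb therefore spread widely within groups, from 3.61 to 7.28 in control and from 4.65 to 9.22 in 18h-αGal, and from 2.88 to 4.02 in 72h-αGal. The summed level of 8 stem cell markers, of which Olfm4 and Slc12a2 were the largest, was also lowest of its group in control replicate 3 (47084 normalised counts) and 18h-αGal replicate 3 (14921). The part of stem cell content in the spread of Cldn2 was not tested.

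Of Cldn3, Cldn4 and Cldn7, none was called in any comparison or alternative. Cldn3 (chr5:134986214-134987476) had 3353, 3352 and 3923 normalised counts in control, 3065, 3276 and 3593 in 18h-αGal, and 4029.9, 3653 and 2853 in 72h-αGal. Its log2 fold change was -0.09 at 18 h, with a 95% interval from -0.36 to 0.19, and 0.00 at 72 h, from -0.27 to 0.28. As folds, these intervals ran from 0.777 to 1.14 at 18 h and from 0.828 to 1.21 at 72 h. The ratio of Cldn15 to Cldn3 per kb, taken within a library, was between 2.23 and 2.35 in 18h-αGal, between 1.61 and 1.93 in control and between 1.22 and 1.57 in 72h-αGal, with no overlap among the groups. Of the exons of Cldn3, 906 bases overlap those of Wbscr25 on the opposite strand, and whether counting used strand is not given in the sources used here. Wbscr25 itself had a mean of 233 normalised counts in control, 175 at 18 h and 204 at 72 h.

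Cldn4 (chr5:134945123-134946934), a neighbour of Cldn3 that lies 39.3 kb away, had 758, 824 and 594 normalised counts in control, 718, 564 and 486 in 18h-αGal, and 802, 692 and 801 in 72h-αGal. In each group Cldn4 was lowest in the same replicate as Cldn2, and the groups overlapped. However, 18h-αGal replicate 2 was also low for Cldn4, at 564, and was highest of its group for Cldn2. The log2 fold change was -0.29 at 18 h, with a 95% interval from -0.68 to 0.10, and 0.38 at 72 h against 18 h, from -0.01 to 0.77 (adjusted p = 0.400 and 0.218, edgeR).

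Cldn7 (chr11:69964779-69967886), a claudin that lies along much of the lateral membrane as well as at the junction, had 4821, 4973 and 5380.0 normalised counts in control, 5571, 6434 and 6911 in 18h-αGal, and 5825, 5446 and 4051 in 72h-αGal. Each 18h-αGal library lay above each control library, while the 72h-αGal libraries overlapped both groups. The log2 fold change at 18 h was 0.33, with a 95% interval from 0.04 to 0.61 and an unadjusted p of 0.0260 in the edgeR fit, which became 0.166 after adjustment over all genes tested. From 18 h to 72 h it was -0.30 (adjusted p = 0.178, edgeR). No alternative fit called Cldn7 in either comparison. Its exons share 331 bases with Elp5 on the opposite strand, and Elp5 had a mean of 1087 normalised counts in control and 1255 at 18 h.

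Cldn23 (chr8:35824709-35826559), a claudin of differentiated surface epithelium, had 1688, 1667 and 2582 normalised counts in control, 1139, 1188 and 1678 in 18h-αGal, and 1943, 2115 and 1411 in 72h-αGal. The lowest values were those of 18h-αGal replicates 1 and 2, but 18h-αGal replicate 3 lay between control replicates 2 and 1. The log2 fold change at 18 h was -0.56 ± 0.20 (SE), the largest in size of the 9 members at that time, with an unadjusted p of 0.0161 and an adjusted p of 0.128 (edgeR). Without 18h-αGal replicate 3 it was -0.75 and passed (adjusted p = 0.0480, edgeR), and without control replicate 3 it was -0.33 ± 0.18 (adjusted p = 0.300), with adjusted p from 0.0480 to 0.332 over all alternatives. Its log2 fold change from 18 h to 72 h was 0.46 (adjusted p = 0.180, edgeR), and against control it was -0.10.

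The 3 members that are not claudins were not called in any comparison or alternative. Ocln (chr13:100496504-100552718) had 3192, 2827 and 3473 normalised counts in control, 2958, 3054 and 3208 in 18h-αGal, and 3067, 2775 and 3055 in 72h-αGal. It varied least of the 9 members, with an SD of 0.09 on the log2 scale over the 9 libraries, and its 95% interval ran from -0.26 to 0.20 at 18 h and from -0.31 to 0.16 at 72 h. Tjp1 (chr7:65296165-65527850) had 3837, 3327 and 4201 normalised counts in control, 3286, 3852 and 4764 in 18h-αGal, and 3688, 4045 and 3236 in 72h-αGal. The Tjp1 groups overlapped, with log2 fold changes of 0.07 at 18 h (95% interval from -0.22 to 0.37) and -0.04 at 72 h (from -0.33 to 0.26).

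F11r (chr1:171437561-171464593) had 2344, 2310.3 and 3785 normalised counts in control, 2837, 3228 and 3161 in 18h-αGal, and 2653, 2527 and 1993 in 72h-αGal. Control replicate 3 was the highest of the 9 libraries, and each 18h-αGal library lay above each 72h-αGal library. The log2 fold change was 0.14 ± 0.17 (SE) at 18 h (adjusted p = 0.705, edgeR) and -0.36 ± 0.17 at 72 h against 18 h (adjusted p = 0.216). Without control replicate 3 the value at 18 h was 0.40 ± 0.13 (adjusted p = 0.0761, edgeR), and that at 72 h against control changed from -0.21 to 0.05.

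**Figure D4:**
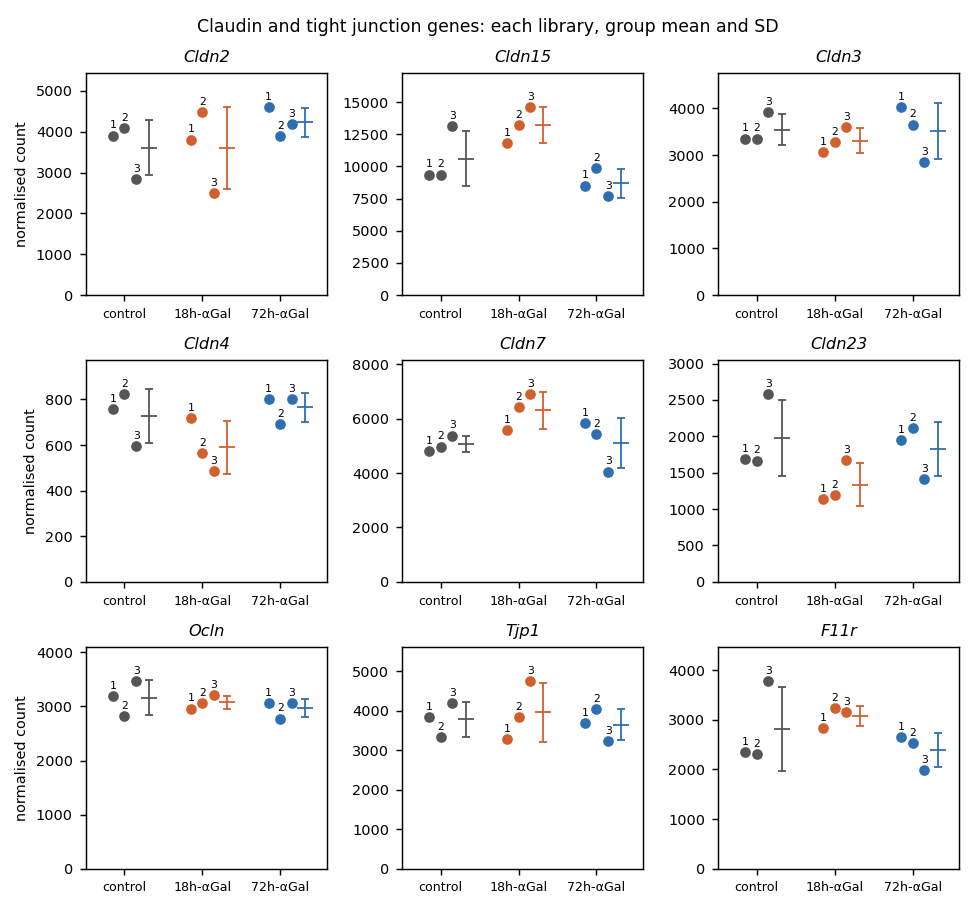
Normalised counts of the 9 members in each library, with the replicate number above each point and the group mean and SD beside the points (n = 3), each panel on its own vertical axis from 0. The Cldn15 panel shows 11837 to 14610 in 18h-αGal above 7663 to 9889 in 72h-αGal, and the Ocln panel shows the least spread.

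Genes with the most similar profile were sought among 10904 genes with a mean of at least 100 normalised counts, by the root mean square difference (RMS) of centred log2 CPM over the 9 libraries. The 3 nearest to Cldn15 were Casp1, Socs4 and Cap1, each with an RMS of 0.06 beside a spread of Cldn15 itself of 0.30 (SD). Casp1 encodes the inflammatory caspase-1 and Socs4 a member of the cytokine signalling suppressors. The nearest to Cldn2 were Nob1, Reps1 and Trp53 (RMS 0.06 to 0.10), and the nearest to Cldn4 were Gvin5, Tmsb4x and Stard13 (0.07 to 0.08). The nearest to Cldn23 were Ifngr2, which encodes a chain of the interferon-γ receptor, at an RMS of 0.08, then Abat and Ctso at 0.10 and 0.11. The nearest to Cldn7 included Ero1a and Ppp1r15b (0.06 and 0.07), and the nearest to F11r were Lgals8, Prr13 and Pex11a (0.06 to 0.08). The nearest to Cldn3 were Midn, the keratin gene Krt8 and Rap2a (0.05 to 0.06). Ocln was nearest to Prrc1, Ccar2 and Dnajb14 (0.04 to 0.05), and Tjp1 to Pdp2, Chd9 and the polarity gene Llgl2 (0.05 to 0.06). The RMS is not scaled to the spread of a gene, which was small for Ocln (SD 0.09), Cldn3 (0.14) and Tjp1 (0.16). These likenesses are a ranking among many genes over 9 libraries and were not tested.

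Of the other claudins, Cldn8 was at or near 0 at 18 h. Of 26 listed, 17 were in the table, 15 claudins and the claudin domain genes Cldnd1 and Cldnd2, and 4 passed the filter on low counts: Cldn6, Cldn8, Cldn12 and Cldnd1. Cldn8, a claudin that limits paracellular sodium passage, had 105, 108 and 16 raw counts in control, 8, 0 and 0 in 18h-αGal, and 6, 32 and 50 in 72h-αGal. All 18h-αGal libraries were below all others after normalisation, at 0 to 5.04 normalised counts against 38.0 to 103 in control and 6.95 to 36.8 at 72 h. Its log2 fold change at 18 h was -4.97 ± 1.04 (SE, adjusted p = 0.0119, edgeR), and it was called in all 17 alternatives. From 18 h to 72 h its log2 fold change was 3.58 ± 1.01 (adjusted p = 0.0364, edgeR), a call that 7 of the 16 alternative fits with a value did not make. With so few counts the size of these changes is imprecise, with a 95% interval at 18 h from -7.19 to -2.75. The summed level of 6 stromal markers was also lower at 18 h, between 24.8 and 49.4 normalised counts against 94.0 to 102 in control and 36.3 to 79.9 at 72 h, with 2 of the 6 at 0 throughout the 18h-αGal libraries, and its part in the fall of Cldn8 was not tested. Per kb, Cldn8 reached 28.6 ± 13.8 normalised counts in control, far below Cldn15. Cldn12 and Cldnd1 were at 1297 and 1432 normalised counts in control, and Cldn6 was at 15.3. None of these 3 was called in any comparison, with adjusted p of at least 0.156 (edgeR).

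Beyond the claudins, 9 of 89 tested genes from the lists of junction and ion transport genes were called at 18 h, including Cldn8, or 10.1% beside 5.96% of all genes. Of these, 3 rose and 6 fell. Cgnl1, which encodes the junctional adaptor paracingulin, fell from 153 to 47.4 normalised counts (log2 fold change -1.68, adjusted p = 0.0244, edgeR), and Magi1, a junction scaffold counted here with the polarity complexes, fell from 1356 to 893 (-0.60, adjusted p = 0.0409, and 0.0626 without control replicate 3). The kinase gene Wnk4, a regulator of chloride and claudin function, fell from 673 to 332 (-1.02, adjusted p = 0.0289). Among 13 ion transport genes, 2 fell: Cftr, the apical chloride channel, from 5795 to 3021 normalised counts (-0.93, adjusted p = 0.000214), and the potassium channel gene Kcnq1 from 4635 to 2376 (-0.96, adjusted p = 0.0219). Cftr was called in all 17 alternatives, and its 18h-αGal libraries, 2766 to 3170.3, were far from the control libraries, 5573 to 6101.

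The 3 genes that rose at 18 h were Nectin1, St14 and Ybx3. Nectin1, an adhesion molecule of the adherens junction, went from 2756 to 3761 normalised counts (log2 fold change 0.46, adjusted p = 0.0142, edgeR). St14, which encodes the membrane protease matriptase, went from 7140.4 to 9902 (0.48, adjusted p = 0.0295), and Ybx3, which encodes a ZO-1-binding nucleic acid binding protein, from 1573 to 2249 (0.53, adjusted p = 0.0376). No gene of the desmosome list (8 tested), the JAM and CTX family (6 tested) or the tricellular angulins (2 tested) was called at 18 h by edgeR or DESeq2, and at an unadjusted p under 0.05 there were 2, 1 and 0 genes. The number of these junction and ion transport genes called at 18 h was between 2 and 11 when each library was left out in turn. Cldn8 and Cftr were the genes called at 18 h in each of the 17 alternatives. Of the other 7, Nectin1 was called in 14 of the 17, Cgnl1 in 12, St14 and Kcnq1 in 11, Wnk4 in 9, Ybx3 in 8 and Magi1 in 7. All 7 lost their call without control replicate 1 (adjusted p from 0.0608 to 0.164, edgeR). Without 18h-αGal replicate 1 or 2, 6 calls were lost each time, without control replicate 2 it was 5, without 18h-αGal replicate 3 it was 3, without 72h-αGal replicate 2 it was Ybx3 and Magi1, and without 72h-αGal replicate 1 it was Magi1. Summed stromal markers were lower at 18 h without overlap, at 24.8 to 49.4 normalised counts against 94.0 to 102 in control. Summed stem cell markers were also lower without overlap, at 14921 to 45043 against 47084 to 89102. The part of either in the genes that fell was not tested.

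**Figure D5:**
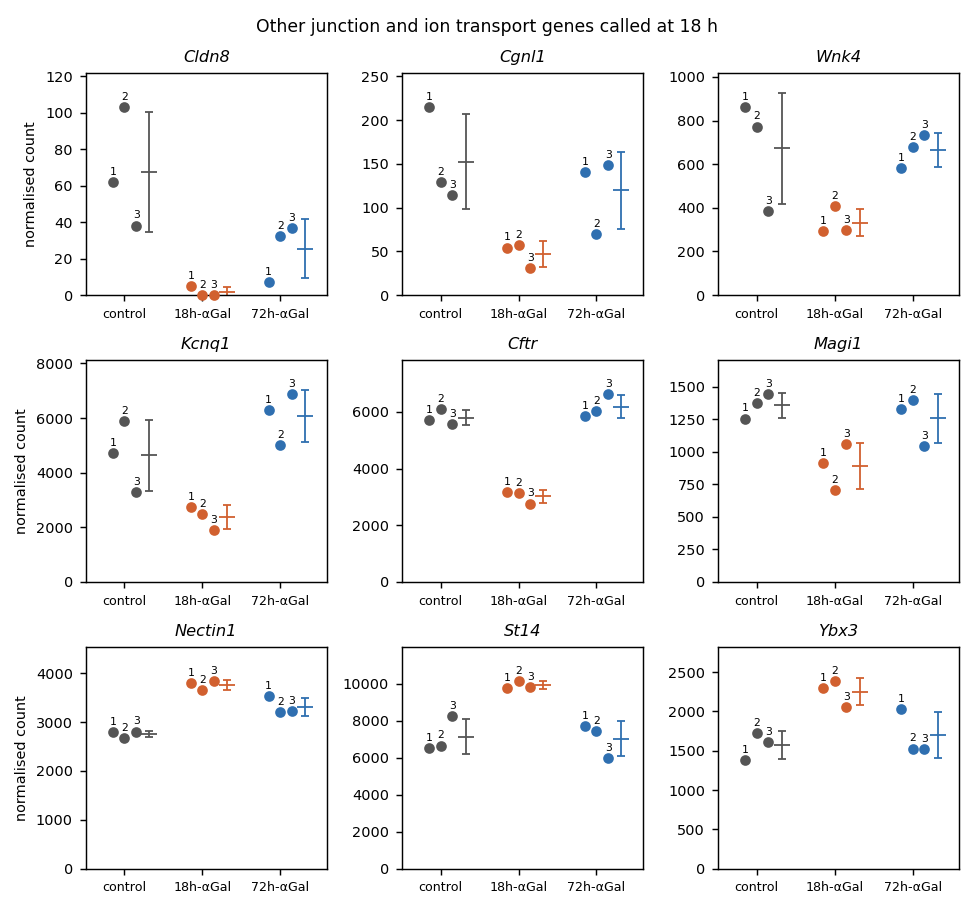
Normalised counts in each library of the 9 junction and ion transport genes called at 18 h against control, with replicate numbers, group mean and SD (n = 3), each panel on its own vertical axis from 0. The Cftr panel shows 2766 to 3170.3 in 18h-αGal between groups at 5573 to 6101 and 5858 to 6635.

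At 72 h against control, 0 of these 89 genes were called by edgeR and 0 by DESeq2, with 5 at an unadjusted p under 0.05. Between 18 h and 72 h, 10 of 89 were called (11.2% beside 10.2% of all genes), 6 higher and 4 lower. The higher ones were Cftr (log2 fold change 1.04), Kcnq1 (1.36), Wnk4 (1.01), Cldn8 (3.58), the scaffold gene Amot (0.62, adjusted p = 0.0127, edgeR) and the vitamin D receptor gene Vdr (0.42, adjusted p = 0.0247). The lower ones included St14 (-0.49, adjusted p = 0.0192, edgeR), the bicarbonate transporter gene Slc4a4 (-0.44, adjusted p = 0.0492) and the GTPase gene Rhoa (-0.35, adjusted p = 0.0484). Rhoa kept its call in 2 and Slc4a4 in 5 of 17 alternatives, Wnk4 and Vdr in 13, St14 in 14, Amot in 16, and Cftr and Kcnq1 in 17. Without 72h-αGal replicate 3, 8 of the 10 calls were lost, all but Cftr and Kcnq1 (adjusted p from 0.0726 to 0.217, edgeR).

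Some markers of the cell types of the crypt were called as well. Beside them, 5.96% of all genes tested were called at 18 h against control. That share was 0.0264% at 72 h against control and 10.2% at 72 h against 18 h. Of 8 enteroendocrine markers, 3 rose at 18 h and 5 fell at 72 h against control, and their summed level ranged from 8296 to 11224 normalised counts in control, from 11769 to 18987 in 18h-αGal and from 3711 to 5718 in 72h-αGal. From 18 h to 72 h, 6 of the 8 fell. Of 5 tested tuft cell markers, 2 rose at 18 h and 3 fell from 18 h to 72 h. The summed level of 8 stem cell markers ranged from 47084 to 89102 in control, from 14921 to 45043 in 18h-αGal and from 60219.7 to 94238 in 72h-αGal, and 0 of the 8 were called at 18 h by edgeR and 2 by DESeq2, with 3 at an unadjusted p under 0.05. From 18 h to 72 h 1 stem cell marker, Axin2, rose. Of 8 proliferation markers, 1, Birc5, rose at 18 h, and their summed level ranged from 17141 to 26363 in control, from 23811 to 32345 in 18h-αGal and from 25481 to 27912 in 72h-αGal. The summed level of 7 Paneth cell markers overlapped among the 3 groups, as did that of 7 goblet cell markers, of which 1, Agr2, rose at 18 h. Markers of cells outside the gate were low. Summed levels for 9 lymphocyte genes were 61.8 to 95.1 normalised counts in control, 38.6 to 86.4 at 18 h and 33.9 to 180 at 72 h. For 8 myeloid genes they were 340 to 533, 418 to 673 and 650 to 880 in the same order, and for 7 endothelial genes 468 to 575, 357 to 643 and 475 to 646. The 6 stromal genes summed to 94.0 to 102 in control and 24.8 to 49.4 at 18 h, without overlap, and 0 of the 3 stromal genes tested were called by edgeR or DESeq2, with 0 at an unadjusted p under 0.05. Of the markers outside the gate, 1 was called, the endothelial gene Vwf, higher at 72 h than at 18 h. The part of cell composition in the changes of the junction and ion transport genes was not tested.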

How the data were processed

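Bulk RNA-seq of sorted IECs was analysed from 9 mouse libraries. The authors deposited raw counts per gene, and beside them normalised counts (unit: signal, each raw count divided by a DESeq2 size factor of its library). The submitters' processing notes name HISAT2, featureCounts (Subread) and DESeq2 1.42.0. They list GRCm38 (mm10), whereas the methods of the study name a later mouse build, so coordinates were taken from RefSeq GRCm38.p6. The strand setting is not given in the sources used here. Symbols and exon lengths came from GENCODE by gene identifier (28480 of 29288 matched). Raw counts were tested with edgeR 4.0.16 (R 4.3.3): filterByExpr, TMM, robust quasi-likelihood fit of all 9 libraries, 2-sided tests, Benjamini-Hochberg adjustment over 18933 genes. DESeq2, limma 3.58.1 and other settings were alternatives (17 fits in all). SE and intervals came from the fit. The code was tested on simulated data. Motifs were counted in RefSeq windows of 250 bases.

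The members and lists were chosen with earlier results of these data known. Named beside the 9 members were listed junction genes and markers that were called (at most 5 per list and comparison by smallest p), other claudins past the filter and the 3 genes of nearest profile per member. Epcam, Ptprc and Pecam1 were added after the values were seen. A count of 0 in a library allows up to 3 counts. Replicate numbers were not used to pair the mice in the main fit. Some genes that the naming rule selects are not reported here.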

Additional observations from a re-analysis of the deposited data

Results flagged for a closer look

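The effects on Cldn15 at 18 h and at 72 h, both against the same control libraries, differed by the direct test between the αGal groups: the log2 fold change of 72h-αGal against 18h-αGal was -0.60 (SE 0.14, adjusted p = 0.0147, edgeR), and each of the 3 libraries at 72 h was below each of the 3 at 18 h. Neither effect passed the test against control on its own (0.33 at 18 h and -0.27 at 72 h). The controls cancel in this difference, so it is the same value as the comparison reported above. It sets different mice sampled at 18 h and at 72 h side by side. Without PBS mice at 72 h, an effect of time alone cannot be told apart. No outlier statistic was computed for single libraries in groups of 3.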

How the results depend on the processing

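With 3 libraries a group, small changes of the members may have gone undetected. The 95% intervals are not adjusted for the number of genes tested. At 18 h against control those of Cldn15 (0.03 to 0.63), Cldn7 (0.04 to 0.61) and Cldn23 (-0.99 to -0.12) left out 0, and none was called. Leaving out libraries gave between 0 and 1 members called at 18 h against control (Cldn15 without control replicate 3, Cldn23 without 18h-αGal replicate 3) and between 0 and 1 at 72 h against 18 h (0 without 18h-αGal replicate 2, 72h-αGal replicate 1 or 72h-αGal replicate 3). No alternative called a member at 72 h against control. The number of junction and ion transport genes called at 18 h against control was 9. It was 4 with only the 2 groups compared, 5 with the replicate block, and 2 to 11 with libraries left out. At 72 h against 18 h it was 10, and 16 with DESeq2, and 2 to 18 with libraries left out. Correlations of same-numbered libraries of different groups, after centring within each group, were between -0.15 and 0.115. Those of differently numbered libraries were between -0.1 and 0.135. With 3 libraries a group, these values cannot tell whether same-numbered mice were caged or sorted together. In a fit with the replicate number as a block, no call of a member changed. The share of Cldn15 among claudins in 18h-αGal was 41.3% with the length of the longest coding transcript in place of all exons. The groups then lay very close: 18h-αGal replicate 1 had 40.6% beside 40.5% in control replicate 3. Likewise, 72h-αGal replicate 2 had 34.0% beside 34.2% in control replicate 2. By that length, Cldn7 took 24.1% to 26.4% in control and Cldn3 18.6% to 19.1%. Of 459 member values under alternatives, 421 kept their direction and their side of the threshold. The values that changed direction were not called in the fit that turned them. Cldn2 at 18 h was -0.01 with DESeq2 size factors, with DESeq2 and with the replicate block, -0.03 with library totals alone and with limma, and -0.003 with only the 2 groups compared. Cldn3 at 72 h against control was -0.01 with DESeq2 size factors and with DESeq2, and -0.02 with limma. Cldn7 at 72 h against control was -0.002 with limma. With library totals alone, Tjp1 was 0.01 at 72 h against control and Ocln 0.04 at 72 h against 18 h, where that scaling moved the median of all genes to 0.12. With libraries left out, the values at 18 h against control ranged from -0.19 to 0.21 for Cldn2, from -0.10 to 0.03 for Ocln and from -0.07 to 0.19 for Tjp1. At 72 h against control they ranged from -0.10 to 0.13 for Cldn3, from -0.03 to 0.19 for Cldn4, from -0.07 to 0.17 for Cldn7, from -0.21 to 0.13 for Cldn23, from -0.11 to 0.04 for Tjp1 and from -0.33 to 0.05 for F11r. At 72 h against 18 h they ranged from -0.01 to 0.22 for Cldn3, from -0.07 to 0.01 for Ocln and from -0.22 to 0.04 for Tjp1. The cause of these changes was not tested.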
